A study of Mus musculus with 16 samples.

Results

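Integrins and the proteins that couple them to actin were followed across healing skin wounds that had been loaded mechanically or left without load. The genes were chosen by symbol, a named set of integrin chains and adhesion plaque genes, with every probe set that the platform table pairs with 1 of those symbols and no other. Of 40 genes so named, 39 had such a probe set, and they held 101 of the 34945 single-symbol probe sets of the array. Fermt1 is not analysed here, nor is the gene for focal adhesion kinase itself. The 101 probe sets covered 10 integrin alpha chains (28 probe sets), 6 beta chains (16), 15 plaque and actin-linking proteins (34) and 8 kinases, adaptors and GTPases (23). A single probe set stood for 10 genes, and the other 29 had several, 6 at the most.

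The study applied tension to incisional wounds on the back of mice, a model of hypertrophic scarring. Its 4 groups were stressed wounds at day 14 (10 days of loading), unstressed wounds at day 14, stressed wounds at day 6 (48 hours of loading) and unstressed wounds at day 6. All animals were wild-type C57BL/6 mice, labelled female, with 4 mice and 4 Affymetrix arrays in each group, 16 in all. Their age is not given in the sources used here, and whole wound tissue was extracted, with no cell type sorted.

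Integrins are receptors of paired alpha and beta chains that grip matrix proteins such as fibronectin, collagen and laminin outside the cell. Inside, talin and kindlin switch them on, and vinculin, paxillin, zyxin and the complex of integrin-linked kinase, PINCH and parvin tie them to actin. Tension on these contacts recruits further plaque proteins and starts signalling through Src-family kinases, p130Cas, Crk and Rac, and in skin wounds the same contacts let fibroblasts pull on the matrix and keratinocytes crawl over it.

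The signals are log values from which the authors had removed a centre for each probe set, so that neither the presence of a transcript nor the levels of different genes can be read from them. Base 2 was assumed for the log; whether the authors used the natural log was not settled by the values, and every fold would then be larger. For the same reason no marker of the labelled tissue could be called present or absent. The 16 arrays fell into 2 classes that the labels do not give. Replicates 3 and 4 of stressed day 14 and of unstressed day 14 had a mean Xist signal of 4.38 to 5.39 and a mean of 3 Y-linked genes of -1.82 to -1.54. The other 12 arrays, among them all day 6 arrays, lay at -0.38 to 0.52 for Xist and -0.27 to 0.28 for the Y-linked genes, which goes against the label of female for them. The classes are balanced over loading at day 14 and are partly aligned with the day. Among the members, the median SD within a group was 0.34 in stressed and 0.275 in unstressed wounds at day 14, and 0.17 in stressed and 0.213 in unstressed wounds at day 6. The number of arrays limits the precision of every value.

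Promoters are shown for the genes of the integrin chains that the loading results at day 14 turn on, Itgav, Itgb1, Itgb5 and Itga4, and for that of vinculin, as the 250 bases before the annotated start on the plus strand of GRCm38.p6 (RefSeq). Capitals mark matches, on either strand, to the GC box (GGGCGG), the TEAD motif (GGAATG) or the CArG box, the site of serum response factor. The Itgav window, at chr2:83724147-83724396, held none of these motifs. The Itgb1 window, at chr8:128685404-128685653, held 1 GC box and 1 TEAD motif. The Itgb5 window, at chr16:33829415-33829664, held 3 GC boxes, and the Itga4 window, at chr2:79255176-79255425, held 1. The Vcl window, at chr14:20929148-20929397, held a CArG box, a TEAD motif and 4 GC boxes, 2 of which overlap.
Itgav: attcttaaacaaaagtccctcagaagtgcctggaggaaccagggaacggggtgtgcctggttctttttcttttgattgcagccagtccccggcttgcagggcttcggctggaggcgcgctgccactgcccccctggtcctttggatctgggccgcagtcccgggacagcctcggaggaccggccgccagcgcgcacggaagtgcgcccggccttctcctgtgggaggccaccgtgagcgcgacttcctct
Itgb1: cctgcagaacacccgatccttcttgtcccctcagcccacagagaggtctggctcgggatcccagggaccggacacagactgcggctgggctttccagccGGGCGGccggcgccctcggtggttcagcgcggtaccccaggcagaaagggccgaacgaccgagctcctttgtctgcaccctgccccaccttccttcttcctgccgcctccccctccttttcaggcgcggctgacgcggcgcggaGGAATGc
Itgb5: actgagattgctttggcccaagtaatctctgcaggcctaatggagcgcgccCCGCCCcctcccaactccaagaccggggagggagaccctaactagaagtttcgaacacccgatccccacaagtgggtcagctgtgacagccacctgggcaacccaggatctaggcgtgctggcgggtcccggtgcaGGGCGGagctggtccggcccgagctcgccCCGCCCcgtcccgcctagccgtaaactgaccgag
Itga4: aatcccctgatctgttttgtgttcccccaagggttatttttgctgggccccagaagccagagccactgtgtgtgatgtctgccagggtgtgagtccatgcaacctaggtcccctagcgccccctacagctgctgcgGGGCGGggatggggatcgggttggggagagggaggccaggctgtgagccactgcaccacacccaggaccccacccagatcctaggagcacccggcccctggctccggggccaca
Vcl: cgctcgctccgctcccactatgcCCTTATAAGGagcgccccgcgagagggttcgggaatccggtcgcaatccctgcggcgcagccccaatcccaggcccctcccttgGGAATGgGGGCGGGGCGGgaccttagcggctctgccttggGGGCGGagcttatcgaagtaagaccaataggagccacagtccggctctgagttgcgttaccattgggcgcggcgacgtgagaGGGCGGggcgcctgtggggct

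The promoter table held entries for 29 of the 39 measured genes, 38 entries in all, and the shares below are of those and of all 32851 entries. A GC box stood in 21 of the 38 entries (55.3%), against 32.7% of all entries. The TEAD motif stood in 4 (10.5%, against 12.6%) and the AP-1 motif TGANTCA in 2 (5.3%, against 6.7%). The CArG box stood in 3 (7.9%, against 1.5%), which belong to Vcl, Fermt2 and Itgb6. These matches describe the letters in the windows and are no evidence of binding.

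In the fit over the arrays of both days, 6 of the 39 genes were higher and 2 lower after 10 days of loading. In stressed wounds at day 14, 10 of the 101 probe sets were higher and 2 lower than in unstressed wounds at an adjusted p of 0.05 in limma, a linear model fitted to each probe set with p-values adjusted over all 34945. That is 11.9% of the members' probe sets, beside 7.35% of all probe sets; for the higher calls it is 9.9% beside 3.31%, and for the lower ones 2.0% beside 4.04%. The genes that rose were the integrin chains Itgav, Itga4, Itgb1 and Itgb5, the PINCH gene Lims1 and the adaptor gene Crk. For loading, rose and fell mean higher or lower in stressed than in unstressed wounds of the same day, not a change over time. Probe sets of some of these genes were lower at day 14 than at day 6 in stressed wounds, as given below. Those that fell were Itgb4, the beta chain of hemidesmosomes, and Ptk2b, the kinase Pyk2. By role, 3 probe sets of alpha chains rose and 0 fell, 5 of beta chains rose and 1 fell, 1 of plaque proteins rose and 0 fell, and 1 of the signalling genes rose and 1 fell. Of the 10 probe sets that rose, 4 belong to Itgb5. The median difference over the 101 probe sets was 0.14 and 71 of them were above 0, beside a median of 0.005 over all probe sets. Groups without overlap were seen in 14 of the members' probe sets with stressed higher, beside 5.55% of all probe sets, and in 3 with stressed lower, beside 4.52%. The calls did not hold in every fit. With only the day 14 arrays, 0 of the 101 probe sets passed, and after quantile normalization 0 did. With only the day 14 arrays and the Xist class as a block, 11 passed. Further settings are given below. In whole tissue, fewer cells of a type and less RNA per cell cannot be told apart, here and in every comparison below.

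Among the alpha chains, Itgav, the partner of several beta chains in receptors for vitronectin, fibronectin and latent TGF-beta, showed the largest difference. Its probe set 1421198_at had signals of 1.62, 1.33, 0.53 and 0.70 in stressed wounds, against -0.42, -0.15, -0.26 and 0.01 in unstressed wounds at day 14 (replicates 1 to 4). Every stressed array lay above every unstressed one, and stressed replicates 1 and 2 lay highest. The difference was 1.25 (SE 0.28, 95% interval 0.66 to 1.83, adjusted p = 0.0147 in limma). It was 1.76 within replicates 1 and 2 and 0.74 within replicates 3 and 4, which carry high Xist. The other 4 probe sets of Itgav differed by 0.07 to 0.27 and none passed.

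Itga4, the alpha4 chain that binds fibronectin and the vascular adhesion molecule Vcam1, rose in 2 of its 5 probe sets. For 1436037_at the stressed arrays stood at -0.77, -0.77, -1.04 and -0.69, against -1.76, -1.91, -1.99 and -1.07 in unstressed wounds at day 14. The groups did not overlap, although unstressed replicate 4 lay just below the lowest stressed array. The difference was 0.87 (SE 0.19, adjusted p = 0.0150 in limma), at 1.07 within replicates 1 and 2 and 0.66 within replicates 3 and 4. Its probe set 1456498_at rose by 0.64 (SE 0.14, adjusted p = 0.0115), with 0.05, 0.00, 0.09 and 0.22 in stressed wounds and -0.62, -0.73, -0.57 and -0.29 in unstressed wounds. The remaining 3 probe sets of Itga4 lay between -0.08 and 0.08.

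No other alpha chain passed at day 14 in the fit without blocks. Itga8, whose chain joins beta1 in contractile cells, had the lowest value. Its probe set 1454966_at differed by -0.71 (SE 0.22, adjusted p = 0.0595 in limma), and its stressed arrays, from -0.80 to -0.67, all lay below the unstressed ones, from -0.66 to 0.60. For Itga9, a receptor chain for tenascin C, 1460285_at differed by 0.53 (adjusted p = 0.0615), with overlapping groups, and passed with the Xist class blocked (0.0383). The collagen receptor chains Itga1 and Itga2 differed by 0.71 (adjusted p = 0.129) and 0.21 (adjusted p = 0.566). The 4 probe sets of the fibronectin receptor chain Itga5 lay between 0.02 and 0.61. For the laminin receptor chains, Itga3 ranged from -0.54 to 0.06, Itga6 stood at 0.06 and 0.30 and Itga7 at 0.32.

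Among the beta chains, Itgb5, which pairs with the alphav chain, rose in all 4 of its probe sets. In 1417533_a_at the stressed wounds at day 14 had -0.15, 0.21, -0.86 and -0.43, against -1.11, -1.26, -1.46 and -1.56 in unstressed wounds. Each stressed array lay above each unstressed array. The difference was 1.04 (SE 0.21, adjusted p = 0.00868 in limma), at 1.21 within replicates 1 and 2 and 0.86 within replicates 3 and 4. Its other 3 probe sets rose by 1.07, 0.72 and 0.92 (adjusted p = 0.0151, 0.0251 and 0.0329). The groups overlapped in the last of these, 1456195_x_at. The ending x_at of that one and of 1456133_x_at is Affymetrix's mark for probe sets that can also match other transcripts, so the 4 are not separate evidence.

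Itgb1, the shared beta chain of most collagen, laminin and fibronectin receptors, rose in 1 of 6 probe sets. Signals of 1426918_at were 0.46, 1.45, 0.35 and 0.32 in stressed wounds, against -0.13, -0.42, -1.06 and -0.57 in unstressed wounds at day 14. The groups did not overlap, and stressed replicate 2 stood far above the other 3 stressed arrays. The difference was 1.19 (SE 0.33, adjusted p = 0.0424 in limma). Blocking on the replicate number ended the call (adjusted p = 0.0723). Within replicates 1 and 2 it was 1.24, and within replicates 3 and 4 it was 1.15. Its probe set 1452545_a_at differed by 0.97 (adjusted p = 0.0642, and 0.0323 with the Xist class blocked), also without overlap, and the other 4 lay between -0.18 and 0.60.

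Itgb4, whose chain pairs with alpha6 in the hemidesmosomes of basal keratinocytes, had 1 probe set, 1427387_a_at, and it fell. Its signals were -1.38, -1.62, -1.03 and -1.14 in stressed wounds, against -0.38, -0.58, -0.50 and -0.46 in unstressed wounds at day 14. The groups lay well apart, with each stressed array below each unstressed one. The difference was -0.81 (SE 0.16, 95% interval -1.15 to -0.47, adjusted p = 0.00814 in limma), at -1.02 within replicates 1 and 2 and -0.61 within replicates 3 and 4. The remaining beta chains did not pass. Itgb3, the partner of alphav in the vitronectin receptor, had 0.49 in 1421511_at (adjusted p = 0.0709, no overlap) and 0.11 in its other probe set. Itgb6, an epithelial partner of alphav, had -0.24 and 0.41, and Itgb8, another partner of alphav, -0.14.

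Of the 34 probe sets of plaque and actin-linking proteins, 1 passed at day 14. It belongs to Lims1, which encodes PINCH1, the adaptor of integrin-linked kinase. In 1418230_a_at the stressed arrays had -0.60, -0.39, -1.61 and -1.41, against -1.52, -1.54, -2.48 and -2.26 in unstressed wounds. The groups overlapped, because replicates 3 and 4 lay lower than replicates 1 and 2 in both. The difference was 0.95 (SE 0.26, adjusted p = 0.0388 in limma), 1.04 within replicates 1 and 2 and 0.86 within replicates 3 and 4. Its other 4 probe sets ranged from -0.13 to 0.78.

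Vinculin, the Vcl product that links talin to actin, lay at the threshold. Its probe set 1416157_at had 1.12, 2.04, -0.08 and 0.73 in stressed wounds, against 0.08, -0.02, -0.59 and -0.62 in unstressed wounds at day 14. Stressed replicate 3 lay within the unstressed range. The difference was 1.24 (SE 0.36, 95% interval 0.47 to 2.01, adjusted p = 0.0505 in limma). Blocking on the replicate number (adjusted p = 0.0297) or on the Xist class (0.0108), or keeping 1 probe set per gene (0.0494), made it pass. It did not pass with only the day 14 arrays (0.169) or after quantile normalization (0.275). Leaving out stressed day 14 replicate 3 (0.0133) or 4 (0.0429) or unstressed day 6 replicate 3 (0.0471) also made it pass. The second probe set of Vcl differed by 0.11. The talin gene Tln1 had 0.79 in 1448402_at (adjusted p = 0.0816, and 0.0179 with the Xist class blocked) and 0.10 and 0.29 in its others, and Parva, which encodes the parvin of the PINCH complex, had 0.82 in 1416818_at (adjusted p = 0.0631, no overlap, and 0.0279 with the Xist class blocked) and 0.29. The lowest value of this role was that of the tensin gene Tns1, -0.57 (adjusted p = 0.206). The remaining plaque genes (Actn1, Actn4, Cav1, Fermt2, Flna, Ilk, Pxn, Tln2, Vasp and Zyx) lay between -0.45 and 0.54.

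Of the 23 probe sets of kinases, adaptors and GTPases, 2 passed at day 14, in opposite directions. Crk, an adaptor that joins p130Cas and paxillin to exchange factors for Rac and Rap, rose in 1 of 5 probe sets. In 1425855_a_at the stressed wounds had 0.93, 0.68, 0.13 and 0.04, against -0.54, -0.22, -0.24 and -0.18 in unstressed wounds. The groups did not overlap, but the difference of 0.74 (SE 0.17, adjusted p = 0.0185 in limma) was 1.18 within replicates 1 and 2 and 0.30 within replicates 3 and 4. Blocking on the replicate number ended this call too (adjusted p = 0.0572). Its other probe sets ranged from -0.18 to 0.45.

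Ptk2b encodes Pyk2, the calcium-responsive relative of focal adhesion kinase. In 1434653_at its signals were -0.92, -0.77, -0.65 and -0.48 in stressed wounds, against -0.11, -0.04, -0.02 and 0.06 in unstressed wounds at day 14. The stressed arrays all lay below the unstressed ones, and the unstressed arrays lay close together. The difference was -0.68 (SE 0.14, 95% interval -0.98 to -0.38, adjusted p = 0.0107 in limma), at -0.77 within replicates 1 and 2 and -0.59 within replicates 3 and 4. Its second probe set, 1442927_at, differed by -0.05. Src, Csk, Bcar1 (p130Cas), Rac1, Rhoa and Rock1 lay between -0.49 and 0.46, and none passed in the fit without blocks. With the Xist class blocked, Rac1 1423734_at (0.46, adjusted p = 0.0132) and Rock1 1450994_at (-0.49, 0.0493) did.

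**Figure D1:**
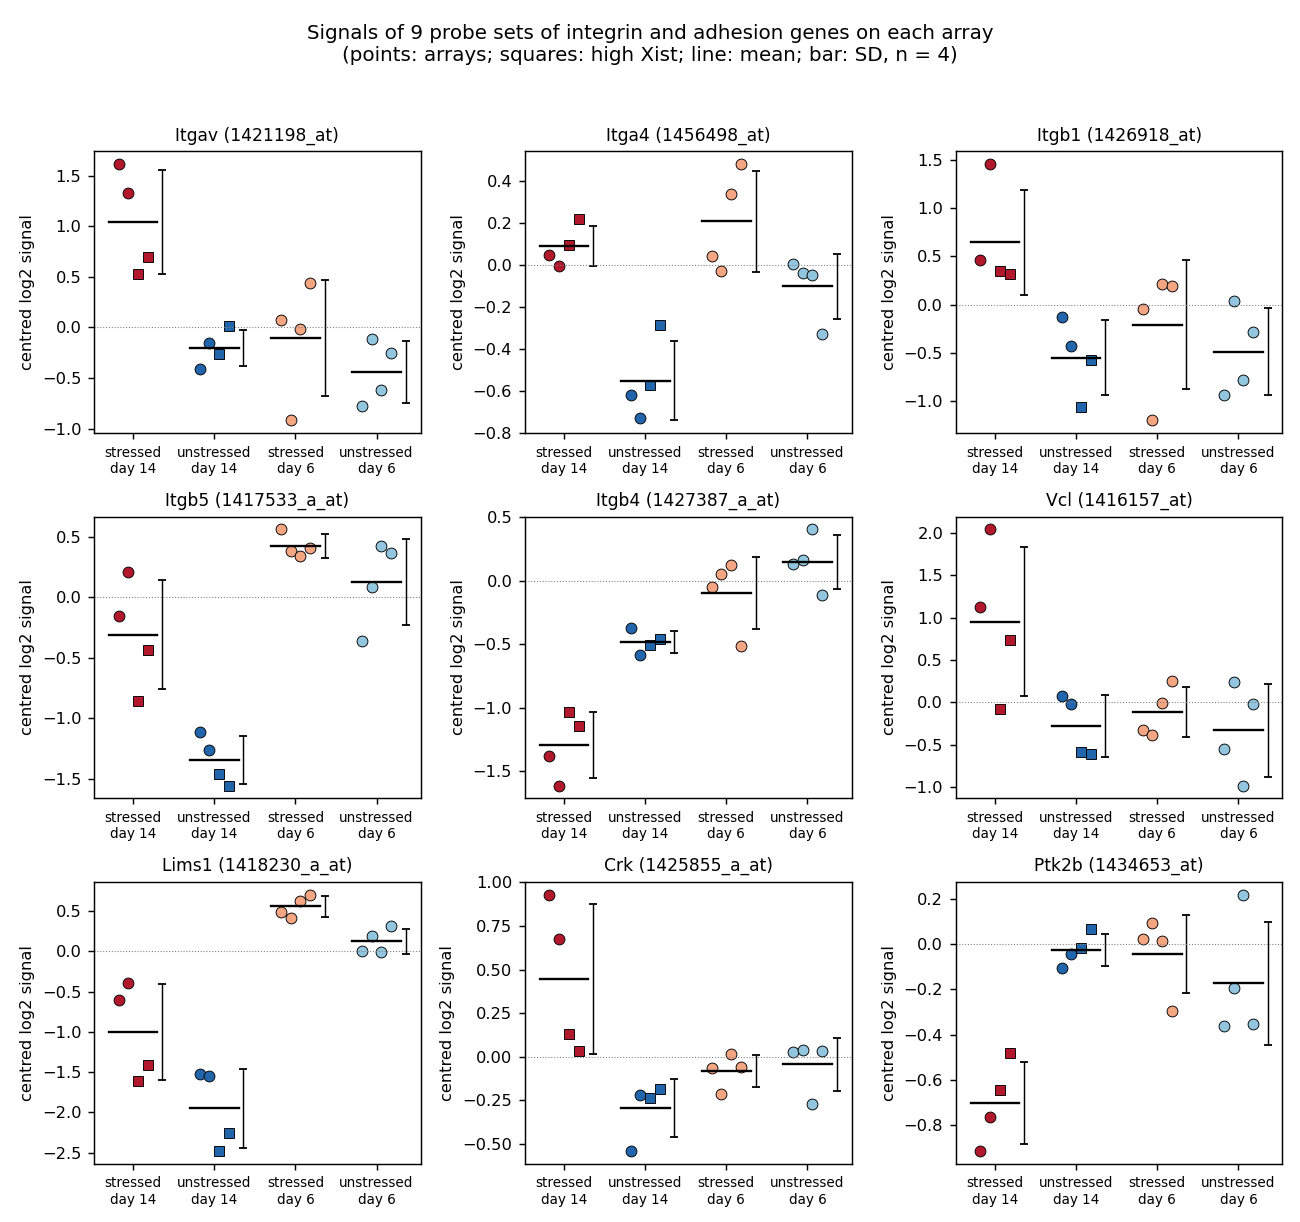
Centred log2 signal (y axis) on each of the 16 arrays for 9 genes, each by its probe set with the smallest p for loading at day 14, by group; points are arrays, squares those with high Xist, lines the group means and bars 1 SD (n = 4). In Itgav the stressed day 14 arrays span 0.53 to 1.62, all above the unstressed day 14 arrays, and in Itgb4 and Ptk2b they lie below them.

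**Figure D2:**
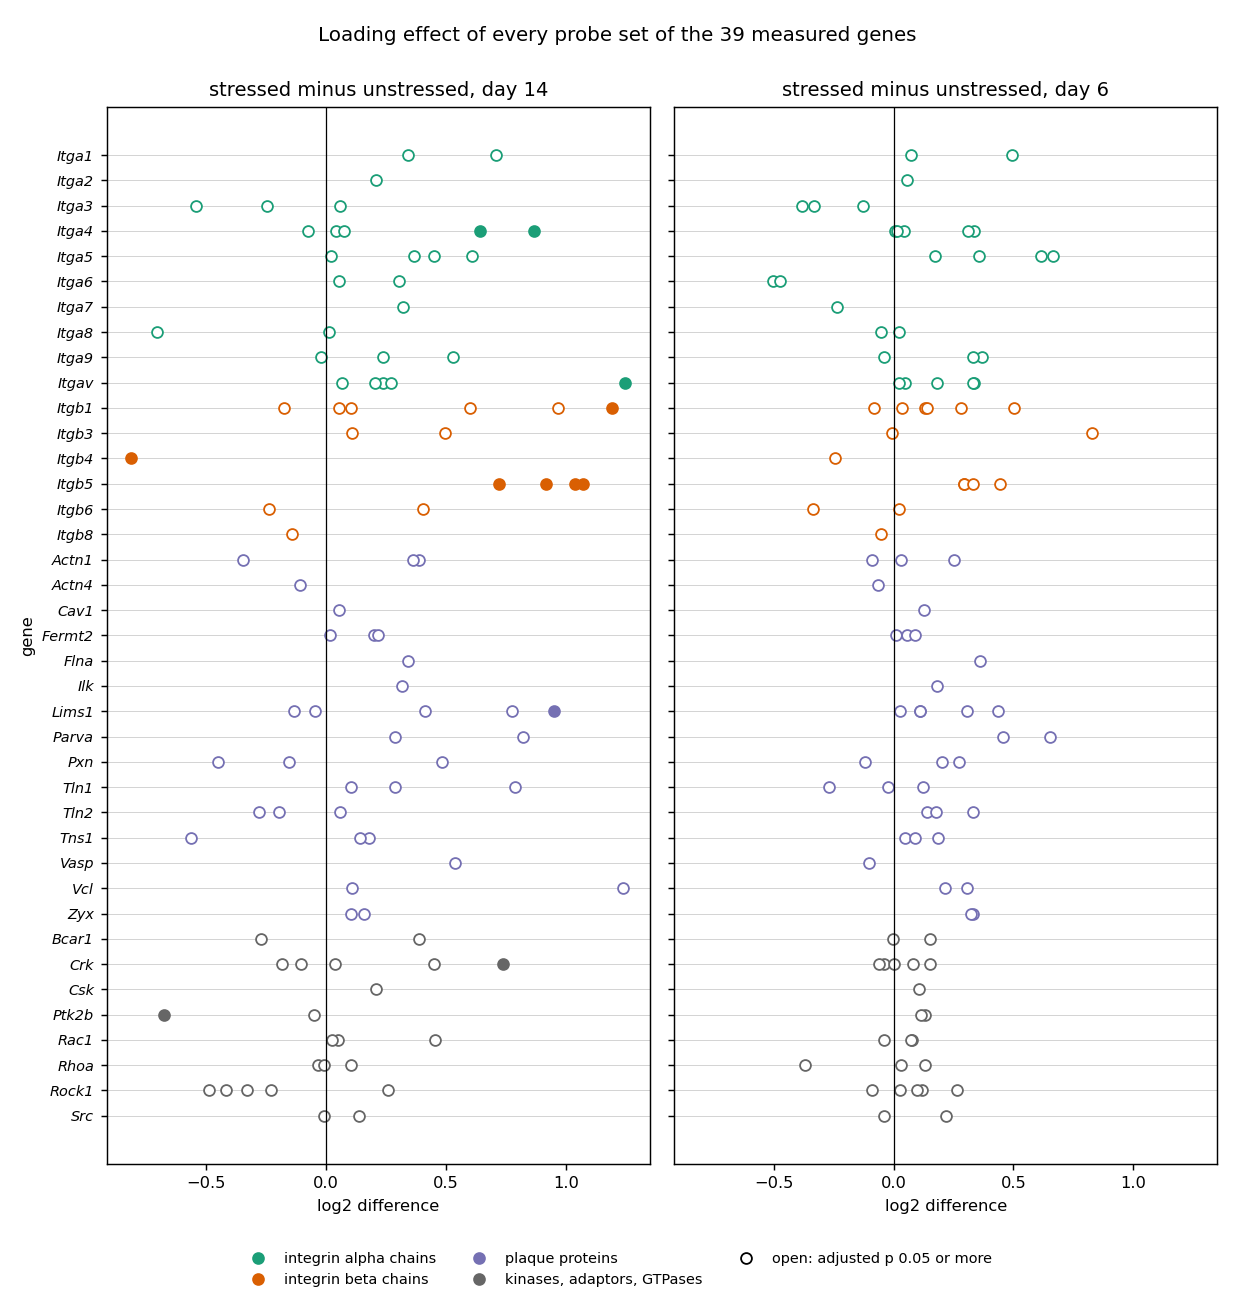
Log2 difference between stressed and unstressed wounds (x axis) for each of the 101 probe sets, in 1 line per gene and coloured by role, at day 14 (left) and day 6 (right); filled points passed an adjusted p of 0.05 in limma. The 12 filled points lie at day 14, between -0.81 and 1.25, and day 6 has 0.

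The calls of day 14 depended on which arrays set the spread, because the fit draws its SE from all 16 arrays. The members' median SD at day 14 was 0.34 in stressed and 0.275 in unstressed wounds. At day 6 it was 0.17 in stressed and 0.213 in unstressed wounds. The shared SE therefore tends to understate the day 14 spread of the members, and their day 14 intervals tend to be too narrow. With only the 8 day 14 arrays, 0 of the 39 genes passed (122 of all probe sets did, 0.349%). With those arrays and the Xist class as a block, an alternative chosen after seeing the data, 8 genes did. That was 10.9% of the members' probe sets, beside 3.3% of all. These 8 held Vcl (adjusted p = 0.046) but not Crk (0.0818), and Itga4 by 1456498_at (0.0325) but not 1436037_at (0.0659). After quantile normalization 0 passed, beside 1.04% of all probe sets. The smallest adjusted p among the calls was then 0.111, for Itgav. With the Xist class as a block over all 16 arrays the 12 probe sets kept their calls and 7 more passed (18.8%, beside 11.7% of all probe sets): the 1 each of Vcl, Tln1, Parva, Itga9 and Rac1 and the second of Itgb1 above 0, and that of Rock1 below it. None of these calls turned its direction in any alternative run. Leaving out single arrays left the calls of both Itga4 probe sets, of Itgb5 1417533_a_at, of Itgb4 and of Ptk2b in place. Itgav was lost without stressed day 14 replicate 2 (adjusted p = 0.055). Crk was lost without stressed day 14 replicates 1 (0.0549) or 2 (0.0702) or unstressed day 14 replicate 1 (0.0547). For Itgb5, 1417534_at was lost without stressed day 14 replicate 1 (0.0507). Itgb1 was lost without any of 9 arrays: stressed day 14 replicates 1 (0.0773) and 2 (0.149), unstressed day 14 replicates 2 (0.0701), 3 (0.107) and 4 (0.0694), stressed day 6 replicates 1 (0.0577), 3 (0.0519) and 4 (0.0507), and unstressed day 6 replicate 4 (0.0554). Lims1 was lost without stressed day 14 replicates 1 (0.117) and 2 (0.137), unstressed day 14 replicates 3 (0.1) and 4 (0.0833), stressed day 6 replicates 1 (0.054), 3 (0.0538) and 4 (0.0511) or unstressed day 6 replicates 1 (0.05) and 4 (0.0505). The x_at probe sets of Itgb5 were lost without either of stressed day 14 replicates 1 (0.0739 and 0.101) and 2 (0.0928 and 0.118) or unstressed day 14 replicates 3 (0.0633 and 0.0813) and 4 (0.0508 and 0.0576), and 1456195_x_at also without unstressed day 14 replicate 2 (0.054).

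Genes of the proteins that integrins bind, most of them matrix proteins, also rose with loading. Of 56 probe sets for 27 integrin ligand genes, 18 (12 genes, 32.1% of the probe sets, beside 7.35% of all) rose in stressed wounds at day 14 and 0 fell, with a median of 0.47. Tnc, tenascin C, rose by 3.22 (SE 0.34, adjusted p = 0.000127 in limma), the collagen gene Col3a1 by 3.02 (SE 0.33, adjusted p = 0.000155), Vcam1 by 3.01 (SE 0.43, adjusted p = 0.00153) and Col1a2 by 2.20. Of 10 probe sets for 8 integrin chains outside the members, most of them of leukocytes or platelets and 1 the collagen receptor chain Itga10, 3 rose (30%): Itgb2 by 1.78, Itgam by 1.54 and Itgax by 1.45, the chains of the receptors that macrophages and dendritic cells use. Their median was 0.36. Among 128 probe sets of 45 other plaque and actin-linking genes 5 rose and 7 fell (9.38% in all), with a median of 0.02. The adaptor gene Shc1 rose by 1.21, while Pdlim5 (1429783_at) and Actn2, genes of proteins of the muscle Z-disc, fell, with differences of -3.08 and -2.84, as did the receptor phosphatase gene Ptprf (-1.16). The other probe sets of Pdlim5 lay between -1.38 and 0.54 and did not pass.

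Markers of several cell types moved with loading at day 14, and their part in the integrin values was not tested. Calls were made in 57.1% of the fibroblast, 70% of the macrophage, 53.8% of the skeletal muscle and 87.5% of the adipocyte probe sets. Over all probe sets the share was 7.35%. Of 14 probe sets of fibroblast markers 8 rose and 0 fell, among them Lum by 2.06, and their mean signal ranged from -0.08 to 0.27 in stressed arrays, against -1.94 to -0.83 in unstressed arrays. The fibroblast list shares Col1a2 and Col3a1 with the ligand list, and the macrophage list shares Itgam with the integrin chains outside the members. Those chains also share Itga2b with the platelet list, and the other plaque genes share Actn3 with the muscle list. Counts of such lists are not separate evidence. Of 10 for macrophages 7 rose and 0 fell, Cd68 by 1.76, with means of -1.14 to -0.02 in stressed arrays and -2.52 to -1.44 in unstressed arrays. Skeletal muscle markers fell in 7 of 13 probe sets, Pygm with a difference of -3.70, with means of -3.54 to -0.23 in stressed arrays and -1.36 to 0.98 in unstressed arrays. Those of adipocytes fell in 7 of 8, Adipoq with a difference of -4.09, with means of -2.26 to 0.55 in stressed arrays and 0.75 to 1.90 in unstressed arrays.

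Of the markers of basal keratinocytes, the cells whose hemidesmosomes hold Itgb4, 1 of 14 probe sets fell (7.14%, beside 7.35% of all). It was 1 of Dst, a hemidesmosome linker (-1.15), whose other probe sets did not pass. The list had a median of 0.07, with 8 of 14 above 0. The mean of these markers ranged from -0.57 to -0.02 in stressed arrays and from -0.66 to -0.05 in unstressed arrays. Krt5 and Krt14 (1460347_at) differed by -0.08 and 0.20. Endothelial markers had 0 of 8 calls, with means of -0.65 to 0.84 in stressed arrays and -1.26 to -0.33 in unstressed arrays. Smooth muscle and pericyte markers rose in 3 of 12 probe sets, all of Rgs5, and fell in 2, Myh11 (-1.45) and Cspg4 (-1.32), 41.7% in all. The suprabasal keratinocyte, platelet and Schwann cell lists had 0 calls in 7, 4 and 4 probe sets. At day 6 the basal keratinocyte mean was lower in every stressed array (-0.29 to 0.01) than in every unstressed array (0.07 to 0.24), with 0 calls. Itga7, the laminin receptor chain known from muscle fibres, stood at 0.32 while the muscle list had a median of -2.22.

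**Figure D3:**
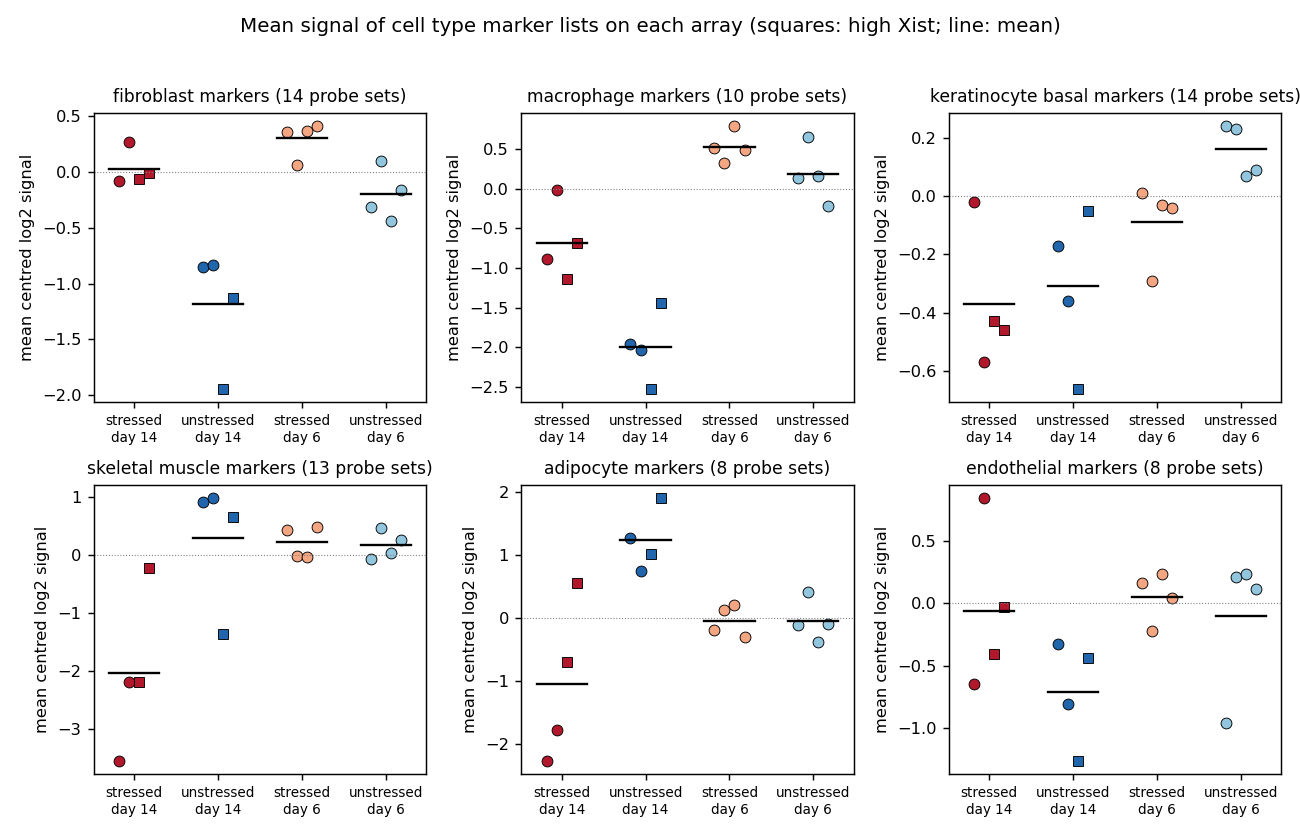
Mean centred log2 signal (y axis) of 6 cell type marker lists on each of the 16 arrays, by group; points are arrays, squares those with high Xist, lines group means. At day 14 the fibroblast and macrophage means lie higher and the adipocyte means lower in every stressed array than in every unstressed one, and the day 6 groups overlap in all but the basal keratinocyte list.

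At day 6, after 48 hours of loading, 0 of the 101 probe sets passed in limma in either direction, beside 0.0258% of all probe sets (9, with 0.0143% higher and 0.0114% lower). An unadjusted p under 0.05 was seen in 10. The share over all probe sets is not set beside that count, so nothing about the members is read from it. Most of the members lay slightly above 0: 75 were positive, with a median of 0.11, beside 0.001 over all probe sets. The widest differences were 0.83 for Itgb3 1455257_at (adjusted p = 0.835), 0.66 for Itga5 1457561_at (adjusted p = 0.422) and 0.65 for Parva 1416818_at (adjusted p = 0.738). In Parva every stressed array, at 0.67, 0.53, 0.58 and 0.50, lay above every unstressed one, at -0.55, 0.02, 0.21 and -0.02. Groups without overlap were seen in 8 members' probe sets with stressed higher, beside 3.11% of all probe sets, and in 1 with stressed lower, beside 3.05%. That 1 was Itga6 1422444_at (-0.50, adjusted p = 0.99). The genes higher in stressed than in unstressed wounds at day 14 had day 6 differences of 0.34 for Itgav 1421198_at, 0.33 for Itga4 1436037_at, 0.28 for Itgb1 1426918_at, 0.29 for Itgb5 1417533_a_at, 0.43 for Lims1 1418230_a_at and -0.04 for Crk 1425855_a_at. Itgb4 stood at -0.24 and Ptk2b 1434653_at at 0.13. The ligand list had a median of 0.45 at day 6 with 0 calls, and the lists of integrin chains outside the members and of other plaque genes also had 0.

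In the fit over all 16 arrays the loading effect was not shown to differ between the days for any member. The test of that difference called 0 of the 101 probe sets, beside 0.00858% of all probe sets (3, with 0.00286% higher and 0.00572% lower). In 13 of the members' probe sets the unadjusted p was under 0.05, again without the share over all probe sets, and nothing is read from it. The smallest p belonged to Ptk2b 1434653_at, whose day 14 effect lay 0.81 below its day 6 effect (SE 0.20, adjusted p = 0.221 in limma). Itgav had a difference of 0.91 (SE 0.39, adjusted p = 0.45), Crk 1425855_a_at 0.78 (adjusted p = 0.311), Itgb5 1417534_at 0.78 (adjusted p = 0.455) and Itgb4 -0.57 (adjusted p = 0.413). With the high Xist arrays left out, so that all arrays were of 1 class, 7 probe sets of 6 genes passed (6.93%, beside 7.87% of all probe sets). They were Crk 1425855_a_at (1.22, adjusted p = 0.00527) and Itgb5 1417534_at (1.29, 0.0196) above 0, and Ptk2b 1434653_at (-0.90, 0.0443), Pxn 1456135_s_at (-1.11, 0.0205), Tns1 1428650_at (-1.17, 0.042) and Rock1 1423444_at and 1450994_at (-1.34, 0.00551 and -0.98, 0.0156) below it. Array weights let 4 pass (3.96%, beside 2.48%): Crk, Ptk2b and Pxn by the same probe sets, and Itgb3 1421511_at (0.84, adjusted p = 0.0436).

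Between days 6 and 14 many members changed in either kind of wound, as did many of all the probe sets. In stressed wounds 16 probe sets were higher and 30 lower at day 14 than at day 6, 45.5% in all, beside 45.3% of all probe sets (18.7% higher and 26.6% lower). In unstressed wounds 6 were higher and 25 lower, 30.7%, beside 40.2% (16.8% higher and 23.4% lower). The days did not overlap in 14 members' probe sets with day 14 higher and 23 with day 14 lower in stressed wounds, beside 16.5% and 23.4% of all probe sets, and in 9 and 23 in unstressed wounds, beside 16.5% and 21.8%. The members' medians were -0.16 in stressed and -0.15 in unstressed wounds, beside -0.07 and -0.05 over all probe sets. After quantile normalization the calls in unstressed wounds split into 12 higher and 18 lower and the median was 0.02. The day 14 arrays of the low Xist class alone gave 28 genes in stressed and 21 in unstressed wounds, and those of the high Xist class 20 and 23, beside 28 and 24 with both. For the low class that was 44.6% and 30.7% of the members' probe sets, beside 47% and 36.5% of all. For the high class it was 28.7% and 32.7%, beside 34.6% and 37.3%. The 2 time comparisons share no arrays, but the loading comparisons share arrays with each.

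Alpha chains fell and rose with time. Itga4 1436037_at had -0.77, -0.77, -1.04 and -0.69 at day 14 in stressed wounds, against 0.37, 0.66, 0.64 and 0.57 at day 6. In unstressed wounds it had -1.76, -1.91, -1.99 and -1.07 at day 14, against 0.08, 0.70, 0.11 and 0.01 at day 6. The days lay fully apart in both, and it fell in both, with differences of -1.38 in stressed and -1.91 in unstressed wounds (adjusted p = 9.01e-05 and 7.73e-06 in limma). Itga7 fell too, by differences of -1.45 in stressed and -2.01 in unstressed wounds, as did Itga9 1460285_at (-0.82 and -1.02). The integrin chains of epidermal cells Itga2 and Itga3 (1460305_at) were higher at day 14, by 0.76 and 0.74 in stressed wounds and by 0.60 and 0.55 in unstressed wounds. The unstressed call of Itga2 was lost without replicate 4 of day 14 (adjusted p = 0.0647) or of day 6 (0.0694), and that of Itga3 without day 6 replicates 3 (0.0545) or 4 (0.0538). Itga1 1455251_at fell by 0.72 in unstressed wounds (adjusted p = 0.0478), a call lost without any of 12 arrays (0.0501 to 0.149). Itgav 1421198_at was 1.15 higher at day 14 in stressed wounds (adjusted p = 0.00366) and differed by 0.24 in unstressed wounds (adjusted p = 0.516). The other probe sets of Itgav lay between -0.275 and 0.276 in stressed and between -0.172 and 0.221 in unstressed wounds and did not pass. Itga8 1454966_at fell by 0.90 in stressed wounds (adjusted p = 0.00374) and differed by -0.17 in unstressed ones (adjusted p = 0.555).

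Of the beta chains, Itgb5 fell with time in 3 of 4 probe sets in both kinds of wound, with differences of -1.04 to -0.71 in stressed and -1.62 to -1.48 in unstressed wounds. Itgb4 fell by 1.20 in stressed wounds (adjusted p = 6.79e-05 in limma) and fell by 0.63 in unstressed wounds (adjusted p = 0.00619), with no overlap between the days in either. Itgb8, whose receptor activates latent TGF-beta, fell as well, with differences of -1.20 in stressed and -1.11 in unstressed wounds. Its stressed call was lost without stressed day 14 replicate 2 (-0.79, adjusted p = 0.0574), and its unstressed call without replicates 1 (0.0608) or 2 (0.103) of day 14 or 1 (0.0682) or 2 (0.0753) of day 6. Itgb1 1426918_at was 0.85 higher at day 14 in stressed wounds (adjusted p = 0.0488), a call lost without any of 10 arrays (0.051 to 0.163). The difference was 0.52 without stressed day 6 replicate 2 and 0.58 without stressed day 14 replicate 2. It differed by -0.06 in unstressed wounds. Its probe set 1438119_at was higher at day 14 in both, by 0.33 in stressed and by 0.43 in unstressed wounds, and 1452545_a_at by 0.82 in stressed wounds.

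Most plaque genes that passed fell. Tln1 1436042_at had -0.64, -0.85, -1.19 and -1.17 at day 14 in stressed wounds, against 0.45, 0.20, 0.12 and 0.07 at day 6, a fall by 1.17 (adjusted p = 0.000151 in limma). In unstressed wounds it fell by 1.55 (adjusted p = 2.06e-05), and 1448402_at fell by 1.07. In stressed wounds 1448402_at differed by -0.41 and did not pass. Tln1 1457782_at, at 0.148 in stressed and -0.16 in unstressed wounds, passed in neither. Ilk, integrin-linked kinase, fell in both, with differences of -0.81 in stressed and -0.95 in unstressed wounds. Actn4, an alpha-actinin, fell by 0.44 in stressed wounds and fell by 0.40 in unstressed wounds. The unstressed call was lost without any of 10 arrays (adjusted p = 0.0515 to 0.137, with -0.26 without unstressed day 14 replicate 4) and the stressed call without stressed replicate 3 of day 14 (0.0638) or replicates 1 (0.0566) or 3 (0.0527) of day 6. In stressed wounds Zyx 1417240_at (-0.66), Tln2 1429111_at (-0.69), Pxn 1424027_at (-0.53) and Parva 1431375_s_at (-0.72) fell. In unstressed wounds Vasp (-1.20), which encodes a promoter of actin filament growth, and Parva 1416818_at (-0.74) did. That call of Parva was lost without unstressed replicate 4 of day 14 (0.0997) or replicates 2 (0.0692), 3 (0.0817) or 4 (0.0631) of day 6. The other probe sets of these genes did not pass in stressed wounds: Zyx -0.15, Tln2 0.26 and -0.15, Pxn 0.66 and -0.38 and Parva -0.58. Vcl 1416157_at was 1.07 higher at day 14 in stressed wounds (adjusted p = 0.0255), a call lost without stressed replicates 1 (0.0582) or 2 (0.0874, with a difference of 0.71) of day 14 or 1 (0.0642) or 2 (0.0595) of day 6, and differed by 0.04 in unstressed wounds. The other probe set of Vcl, 1416156_at, differed by -0.45 in stressed wounds (adjusted p = 0.0544). Fermt2 1459324_at, of the kindlin that activates integrins, was 0.58 higher in stressed wounds, while its other probe sets differed by -0.55 and -0.36 and did not pass.

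Among the signalling genes, the Src substrate gene Bcar1 (1439388_s_at) had -0.97, -0.87, -1.21 and -0.98 at day 14 in stressed wounds, against 0.28, 0.37, 0.29 and 0.02 at day 6. The days did not overlap. It fell by 1.25 there (adjusted p = 3.02e-05 in limma) and fell by 0.98 in unstressed wounds (adjusted p = 0.000151). The other probe set of Bcar1, 1450622_at, differed by -0.013 in stressed and -0.245 in unstressed wounds and did not pass. Csk, the kinase that holds Src inactive, fell by 0.68 in stressed wounds and fell by 0.78 in unstressed wounds. The kinase gene Rock1, whose product drives contraction of actin and myosin, fell in 4 of 5 probe sets in stressed wounds, with differences of -1.70 to -0.69, and in 2 in unstressed wounds (-1.16 and -1.55). Rac1 1451086_s_at was higher at day 14 by 0.43 in stressed wounds and by 0.48 in unstressed wounds. Rac1 1423734_at and 1437674_at differed by 0.264 and 0.075 in stressed and by -0.113 and -0.015 in unstressed wounds and did not pass. The stressed call of Rac1 was lost without stressed replicates 1 (adjusted p = 0.0551), 2 (0.0695) or 4 (0.0572) of day 14 or 2 of day 6 (0.093, with a difference of 0.26), and the unstressed call without unstressed replicates 2 of day 14 (0.0558) or 3 of day 6 (0.0654). Rhoa 1443768_at fell by 0.66 in unstressed wounds, where its other probe sets differed by -0.104 and -0.078 and did not pass. Ptk2b 1434653_at fell by 0.66 in stressed wounds (adjusted p = 0.00169) and differed by 0.15 in unstressed wounds (adjusted p = 0.422).

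Probe sets of 1 gene did not always move together, so a gene's direction over time depends on which is read. Of the 29 genes with several, all probe sets had the same sign in 13 for loading at day 14, in 9 for time in stressed wounds and in 12 for time in unstressed wounds. The direction given for a named probe set therefore need not be that of the gene. In stressed wounds 6 genes (Crk, Itga4, Itga5, Itga9, Lims1 and Ptk2b) had probe sets past the threshold in both directions, and Crk alone did in unstressed wounds. Crk 1416201_at fell by 0.76 in stressed wounds and fell by 1.06 in unstressed wounds, while 1436835_at was higher by 0.72 and 0.98. Lims1 1418230_a_at fell in both (-1.56 in stressed and -2.08 in unstressed wounds), while 1418231_at was 1.02 higher in stressed wounds (adjusted p = 0.0324 in limma) and differed by 0.55 in unstressed wounds. For Ptk2b, 1442927_at was 0.61 higher in stressed wounds, a call lost without replicates 1 (0.0673) or 4 (0.0625) of day 14 or 1 (0.0605) or 4 (0.0594) of day 6, and 0.78 higher in unstressed wounds, or 0.51 without unstressed day 14 replicate 4. Itga5 1423267_s_at fell by 1.06 in stressed wounds, a call lost without replicate 1 of day 14 (0.0682, with a difference of -0.68) or 2 of day 6 (0.059), while 1423268_at was 0.59 higher and 1458996_at fell by 0.77 (adjusted p = 0.000133). Itga9 1420860_at was 0.57 higher there and Itga4 1450155_at 0.34 higher. No gene had probe sets past the threshold in both directions for loading.

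Further calls over time were lost when 1 array was left out. In stressed wounds these were Crk 1425855_a_at (2 arrays, adjusted p = 0.0636 to 0.0763), Crk 1460176_at (1 array, 0.0544), Itga4 1450155_at (2, 0.0528 to 0.0532) and Itga5 1423268_at (5, 0.0506 to 0.115). Those of Itga9 1450029_s_at (4, 0.0502 to 0.107), Itgb5 1417534_at (4, 0.0622 to 0.0861), Lims1 1418231_at (4, 0.0587 to 0.107) and Rock1 1450994_at (3, 0.0601 to 0.0831) were lost likewise. So were Fermt2 1459324_at (7, 0.0529 to 0.129), Parva 1431375_s_at (7, 0.0507 to 0.123), Itgb1 1438119_at (9, 0.0534 to 0.12) and Itgb1 1452545_a_at (4, 0.054 to 0.131, with 0.54 without stressed day 14 replicate 2). Pxn 1424027_at was lost without any of 4 arrays (0.0512 to 0.0993), with -0.34 without stressed day 14 replicate 1. In unstressed wounds they were Itga5 1423267_s_at (4, 0.05 to 0.0828), Rock1 1423444_at (6, 0.0543 to 0.0979), Itgb1 1438119_at (2, 0.0546 to 0.057) and Itga4 1456498_at (1, 0.0502).

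**Figure D4:**
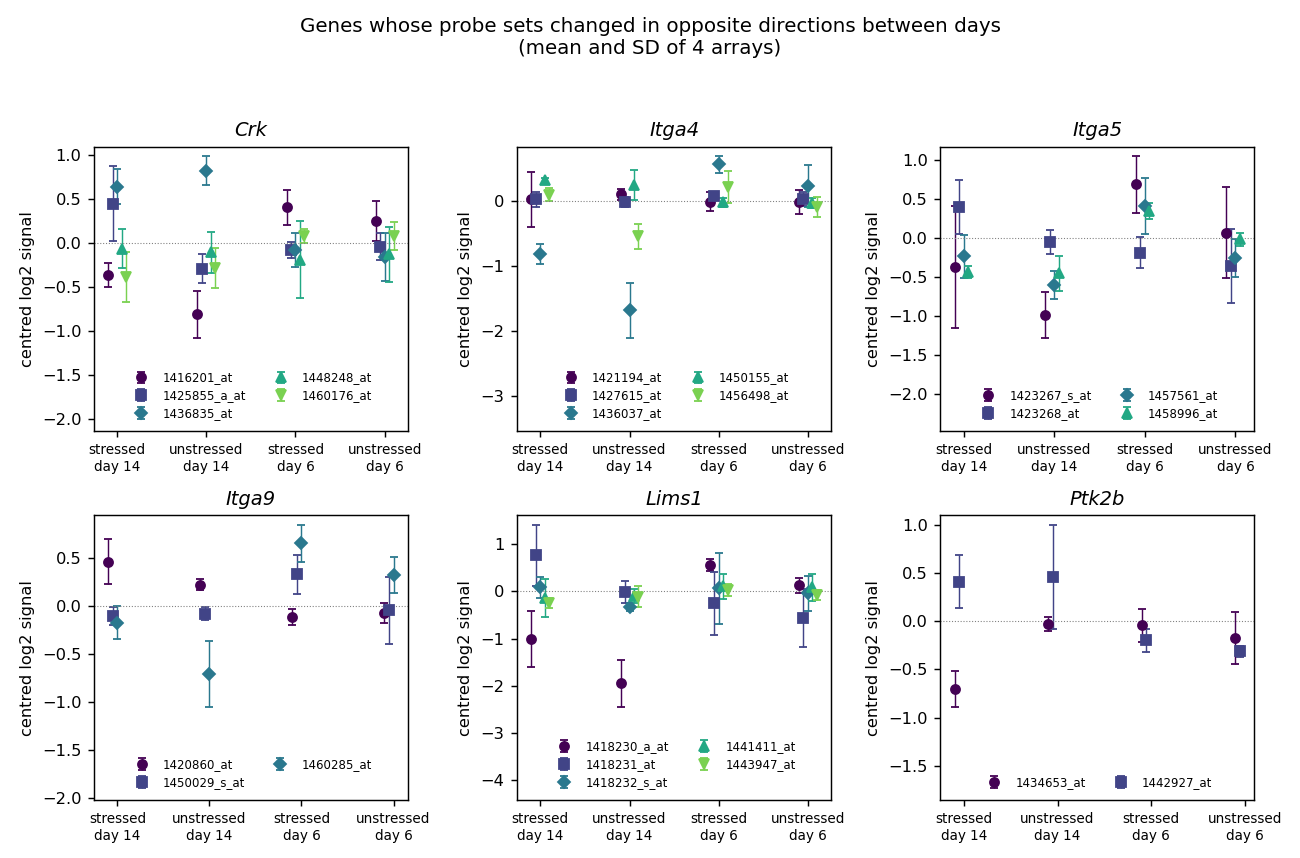
Mean centred log2 signal (y axis) by group, with bars of 1 SD (n = 4), for each probe set of the 6 genes that had probe sets past the threshold in both directions between days. In Crk, 1416201_at falls by 0.76 between day 6 and day 14 of stressed wounds and 1436835_at is higher by 0.72.

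The shares of the pathway lists that passed over time stood beside 45.3% of all probe sets in stressed and 40.2% in unstressed wounds. In stressed wounds 3 probe sets of integrin ligands were higher and 15 lower at day 14 (32.1% in all), and in unstressed wounds 1 and 23 (42.9%). The integrin chains outside the members fell in 3 of 10 probe sets in stressed wounds and in 5 in unstressed wounds, Itgb2 with differences of -1.36 in stressed and -2.74 in unstressed wounds. Of 128 probe sets of other plaque genes 17 were higher and 43 lower in stressed wounds (46.9%), and 15 higher and 35 lower in unstressed wounds (39.1%), where Fermt3 1433963_a_at, of the kindlin of blood cells, fell by 2.65. Over the same days macrophage markers fell in 9 of 10 probe sets in stressed wounds and in all 10 in unstressed wounds, and muscle markers fell in 10 of 13 in stressed wounds and in 0 in unstressed wounds, while Itga7 fell in both. Whether these shifts bear on the members' values was not tested.

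In the fit over all arrays, 31 of the 39 genes had a probe set past the threshold in at least 1 of the 5 comparisons. The other 8 were Itga6, Itgb3, Itgb6, Actn1, Cav1, Flna, Src and Tns1. The same count was not made over all genes, so the 31 are not set apart from the array. With 1 probe set per gene, time alone called 64.1% of the members in stressed wounds, beside 58.3% of all genes. In unstressed wounds it called 56.4%, beside 55%. Itga6 1422444_at, the alpha6 chain, separated the Xist classes more than the groups: at day 14 it had 0.19, 0.02, -0.73 and -0.95 in stressed wounds and 0.46, 0.42, -1.33 and -1.25 in unstressed wounds. Src, the kinase downstream of integrins, differed by at most 0.23 in size in any of the loading and time comparisons. Cav1, which encodes the caveolin of membrane pits, and Flna, an actin crosslinker that binds integrin tails, differed by at most 0.26 and 0.36.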

How the data were processed

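RNA from incisional wound tissue was hybridised to 16 Affymetrix arrays, 4 per group. The deposited values are read as log2 signals that the authors centred per probe set on a reference they did not state. Intensity files were processed with GeneSpring GX 11.0, per the series' design text. How background was corrected and arrays were normalized is not stated. The scale was inferred: the widest probe set spans 10.076, above the 4.82 that log10 of a 16-bit scanner allows, and 6.3% of probe sets have a median within 0.001 of 0. Array medians lie between -0.009 and 0.052.

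Of 45101 probe sets, 34945 with 1 gene symbol were tested, 932 had several symbols, 9160 had none and 64 were controls. Group means were fitted over all 16 arrays in limma 3.58.1 (R 4.3.3), with eBayes moderation and Benjamini-Hochberg adjustment over all 34945 probe sets at 0.05, for 5 comparisons. All adjusted p-values come from limma. Tested on simulated data with 100 probe sets changed by 1 and 100 by 2, the script recovered 67% and 96% of them for loading at day 14, 72% and 95% at day 6, and 38% and 81% for the difference between days. The simulated noise was normal, with 1 SD per probe set for all 4 groups. Real arrays spread more at day 14 than at day 6, so these shares do not describe recovery under the day 14 spread.

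The labels do not say what a shared replicate number marks, and the blocked fit used it at both days and across days. At day 14 the deviations of same-numbered arrays correlated weakly (r = 0.14 to 0.26). For stressed replicates 2 and 4 the closest unstressed arrays were replicates 1 (0.23) and 3 (0.2). At day 6 same-numbered arrays did not deviate together (-0.42 to 0). The members and lists were chosen with earlier results of these data known. Named are every member past the threshold, the extremes of each role by the probe set of largest interquartile range, up to 4 genes per pathway list and up to 2 per marker list. Further members are given by value to account for the family. One pathway list is not reported here. Figures were drawn with matplotlib 3.10.9.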

Additional observations from a re-analysis of the deposited data

Results flagged for a closer look

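In 45 probe sets of the members that the text names, 1 array of a group of 4 stood far from the other 3 in 17 of 180 groups, where chance gives about 1 in 20. No explanation was tested. Among stressed wounds at day 14, Itgb6 1422983_at had 1.18 on replicate 1, with the others at -0.26 to -0.07. Replicate 2 had 0.66 for Flna (others -0.40 to -0.28) and 1.45 for Itgb1 1426918_at (others 0.32 to 0.46), and replicate 3 had -0.31 for Src 1450918_s_at (others 0.04 to 0.09).

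Among unstressed wounds at day 14, replicate 1 had -0.55 for Itga5 1423267_s_at (others -1.19 to -1.09) and -0.54 for Crk 1425855_a_at (others -0.24 to -0.18). Replicate 3 had 0.60 for Actn1 1427385_s_at (others -0.79 to -0.57) and 0.13 for Src 1450918_s_at (others -0.29 to -0.23).

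Among stressed wounds at day 6, replicate 2 had -0.87 for Rhoa 1450632_at (others 0.19 to 0.28), 0.71 for Src 1450918_s_at (others -0.05 to 0.07) and -0.98 for Vasp (others 0.22 to 0.46). On replicate 3, Itga9 1460285_at had 0.36 (others 0.71 to 0.76). Among unstressed wounds at day 6, replicate 2 had 0.70 for Itga4 1436037_at (others 0.01 to 0.11). Replicate 3 had 0.93 for Itga5 1423267_s_at (others -0.29 to -0.10), -0.27 for Crk 1425855_a_at (others 0.03 to 0.04) and -0.30 for Cav1 (others 0.06 to 0.13). On replicate 4, Itga4 1456498_at had -0.33 (others -0.05 to 0.00).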

How the results depend on the processing

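Counts here are of member genes past the threshold, where no cause was tested. For loading at day 14 (8 genes: 6 higher, 2 lower), array weights gave 13 (18.8% of the members' probe sets, beside 14.7% of all), the Xist class as a block 14 (18.8% beside 11.7%), replicates 1 and 2 of day 14 alone 16 (21.8% beside 18.7%), and replicates 3 and 4 alone 2 (1.98% beside 2.29%). The mean over a gene's probe sets gave 4 (10.3% of the members beside 7.7% of all genes). Quantile normalization gave 0 (beside 1.04% of all probe sets) and only the day 14 arrays 0 (beside 0.349%). These arrays with the replicate number as a block gave 1 (0.99% beside 1.54%). Leaving out single arrays gave 4 to 12: 5 without stressed replicate 1, 4 without replicate 2, 11 without replicate 3 and 12 without replicate 4. With the replicate number as a block, 7 genes passed (10.9% beside 6.26%). For loading at day 6 (0 genes), quantile normalization gave 1 (0.99% beside 1.42%). For the difference between days (0 genes), array weights gave 4 (3.96% beside 2.48%) and replicates 1 and 2 of day 14 alone gave 6 (6.93% beside 7.87%). In both, the block gave 0 and leaving out single arrays 0. For time in stressed wounds (28 genes) the mean over probe sets gave 17 (43.6% beside 45.6%) and the block 26 (41.6% beside 43.7%). Leaving out single arrays gave 22 to 29, beside 13175 to 16295 of all probe sets. In unstressed wounds (24) the mean gave 16 (41% beside 43.9%) and the block 22 (29.7% beside 38.4%). Leaving out single arrays there gave 19 to 26, beside 11432 to 14551 of all probe sets. The block ended the calls of Itgb1 and Crk at day 14. Over all probe sets, quantile normalization left 364 calls of 2567 for loading at day 14 and gave 496 beside 9 at day 6. Only the day 14 arrays gave 122, array weights 5149, and leaving out single arrays 948 to 4800. In time, quantile normalization split the calls into 6773 higher and 6578 lower in stressed wounds (6538 and 9309 without it), and into 6036 and 6311 in unstressed wounds (5871 and 8166). For loading at day 14 the 12 called probe sets and that of Vcl were followed, and 0 of these 13 kept their side of the threshold under every alternative. For time only called probe sets with the largest interquartile range of their gene were followed. In stressed wounds 12 of 25 kept their side, where 46 had been called. In unstressed wounds 12 of 22 did, where 31 had been called. None reversed. Centred values without detection calls leave signal over background unknown.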
